A study of Mus musculus with 4 samples.

Results

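The 2′-5′ oligoadenylate synthetase (OAS) genes described here are Oas1a, Oas1g, Oas2, Oas3, Oasl1 and Oasl2, 6 of the 54532 genes in the count table, found by their gene symbols. They were measured by RNA sequencing in bone marrow neutrophils of wild-type mice, 2 libraries of cells treated with Aβ40, the amyloid-beta peptide that deposits in vessel walls, and 2 libraries of cells given DMSO, a solvent. The Aβ40 dose was 20 µg/ml and the treatment lasted 4 h, per the series' description, which gives no time for the DMSO cells. The strain, the way the cells were purified, and whether libraries of a group came from separate mice are not stated in the labels. The p-values below therefore reflect the spread between these libraries alone, which may be technical. The genes were chosen by name with their counts in the Aβ40 and DMSO libraries already known, so the comparison of the 2 groups is a description for these 6 genes. It is given by levels and fold changes without a p-value for any gene, and counts of genes past a threshold stand only beside the same counts over all tested genes.

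OAS proteins are sensors of double-stranded RNA. When such RNA binds, the active members join ATP into short adenylate chains with 2′-5′ bonds, called 2-5A, a messenger that leads to the decay of viral and host RNA. The genes are induced by interferon through a complex of transcription factors that holds STAT2 and IRF9 and binds an interferon-stimulated response element, a repeat of GAAA-like units, in the promoter. In mouse, Oas1a and Oas1g encode active synthetases with a single catalytic unit, and Oas2 and Oas3 carry several OAS units in a row. Oasl1 and Oasl2 carry ubiquitin-like domains at their carboxyl end. Mouse Oasl2 keeps synthetase activity, whereas mouse Oasl1 lacks it and is known to restrain translation of Irf7, a transcription factor of the interferon response.

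Promoter windows of 300 bases, from 250 before the start site to 50 after it, were available from RefSeq (GRCm38.p6) for 5 of the 6 genes, all on chromosome 5. Both strands were searched for a pair of GAAA units with any 2 bases between them (GAAA, NN, GAAA) and for a pair with any 1 base between them (GAAANGAAA). Oas1a, Oas1g and Oas3 held matches, and neither Oasl1 nor Oasl2 did within this window. The stretches that hold the matches are shown so that the shared letters can be read beside the levels; all are written 5′ to 3′ on the strand of the gene, and capitals mark the matched bases. The stretches lie at chr5:120907476-120907585 (Oas1a, minus strand), chr5:120887564-120887673 (Oas1g, minus strand), chr5:120777610-120777759 (Oas3, minus strand) and chr5:120812585-120812654 (Oas1c, minus strand).
Oas1a: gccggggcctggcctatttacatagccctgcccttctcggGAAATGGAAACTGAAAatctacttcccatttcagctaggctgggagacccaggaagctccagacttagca
Oas1g: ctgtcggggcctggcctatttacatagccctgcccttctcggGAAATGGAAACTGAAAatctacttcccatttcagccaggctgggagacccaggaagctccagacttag
Oas3: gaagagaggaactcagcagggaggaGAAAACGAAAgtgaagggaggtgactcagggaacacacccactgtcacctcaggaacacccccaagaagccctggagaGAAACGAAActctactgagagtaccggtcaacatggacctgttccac
Oas1c: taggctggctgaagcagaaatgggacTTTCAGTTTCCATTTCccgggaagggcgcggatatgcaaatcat

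In Oas1a and Oas1g 2 overlapping pairs with 2 bases between the units formed the same run of 16 bases, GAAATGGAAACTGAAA, which began 20 bases before the start site in Oas1a and 18 before it in Oas1g. Over the whole windows, 88.8% of the bases that aligned between these promoters were identical (261 of 294). Oas3 had 1 pair with 2 bases between, beginning 75 bases before the start site, and 1 match of GAAANGAAA at position 4, counting the start site as 1. Oas1c, a family gene outside the 6, is shown because its capitals are the reverse complement of the run in Oas1a and Oas1g. They begin 114 bases before the start site of Oas1c and lie between 120812613 and 120812628. The family gene Oas1b, on the plus strand, starts at 120812635, so the run lies directly before Oas1b. On the strand of Oas1b its letters read as in Oas1a and Oas1g. Whether the run belongs to Oas1b or Oas1c was not tested. Among all 32851 promoter windows in the table, 3.44% held the pair with 2 bases between, 0.225% held it at least 2 times, and 3.17% held GAAANGAAA. Of the interferon-stimulated genes listed for comparison, 32 had a window and 21 of these held either form, against 6.27% of all windows. A match describes letters only and does not show that a factor binds there.

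Total counts were 17684621 and 19163503 in the Aβ40 libraries and 19524125 and 17212264 in the DMSO libraries, and levels are given as CPM, counts scaled to a common library size with TMM, a correction for library composition. Among 13479 genes tested, 17 rose and 0 fell with Aβ40 (edgeR quasi-likelihood test, Benjamini-Hochberg adjusted p under 0.05); unadjusted, 771 genes had a p under 0.05 on the lower side, and DESeq2 called 36 genes lower. Neutrophil markers dominated every library, with a summed level of 134185 to 141110 CPM over 14 markers with Aβ40 and 96904 to 137160 CPM with DMSO, the lowest being DMSO 2. That sum rests mostly on S100a8, S100a9 and Ngp. Within the list 9 log2 fold changes were positive and 5 negative, with a median of 0.07. Groups were apart for 4 markers on the lower and 2 on the higher side. By the edgeR test 0 markers were called, and 2 had an unadjusted p under 0.05 on the lower side and 0 on the higher side. These 2 were the cytokine receptor Csf3r at -0.61 and the protease Mmp9 at -0.55 on the log2 fold change scale. Csf3r had 455 and 412 CPM with Aβ40, against 567 and 755 CPM with DMSO, and Mmp9 had 647 and 713 CPM with Aβ40, against 975 and 1011 CPM with DMSO, with groups apart in both. Markers of other marrow cells were also present, and none of these lists had a member at 0 in every library. The 10 B cell markers, among them Cd79a, summed to 472 to 487 CPM with Aβ40 against 144 to 145 CPM with DMSO, with 6 called higher, and the 8 eosinophil markers, among them Prg2, to 3566 to 3611 CPM against 1365 to 1623 CPM, with 1 called higher. For T and NK cells the sums were 96.7 to 108 CPM with Aβ40 and 65.4 to 67.6 CPM with DMSO, with 1 of 9 tested markers called higher, for monocytes and macrophages 3155 to 3695 and 2696 to 2778 CPM, with 0 called, for plasmacytoid dendritic cells 328 to 332 and 221 to 250 CPM, with 0 called, and for erythroid cells 3494 to 3647 and 2114 to 5041 CPM, with 0 called. In these 3 lists, 5 monocyte and macrophage, 3 plasmacytoid dendritic and 1 erythroid markers had an unadjusted p under 0.05 on the higher side. Over all 13479 tested genes 877 did. On the lower side 0 monocyte and macrophage, 1 plasmacytoid dendritic and 0 erythroid markers did, against 771 over all tested genes. The monocyte and macrophage sum rests mostly on Ly6c2. In that list 9 of 11 log2 fold changes were positive, while Csf1r (-0.25) and Cx3cr1 (-0.28) were lower with groups apart. In the plasmacytoid dendritic list 6 of 7 tested markers were positive, and Runx2 was lower, at -0.44. The largest difference in CPM there was that of Ly6d, with 120 and 116 CPM with Aβ40, against 55.9 and 37.6 CPM with DMSO. These other marrow cells can express OAS genes too, and the part of cell makeup in the values below was not tested. In bulk RNA, fewer cells of a type and less RNA per cell cannot be told apart.

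Oas1a (ENSMUSG00000052776, mm10 chromosome 5, 120896256 to 120907521, minus strand) had 78.5 and 80.6 CPM in Aβ40 1 and 2, against 71.7 and 95.0 CPM in DMSO 1 and 2. Both Aβ40 libraries lay between the DMSO libraries, so the groups overlapped. The log2 fold change of Aβ40 over DMSO was -0.07 (SE 0.19), and without DMSO 2 it was 0.14. The neighbouring Oas1g (ENSMUSG00000066861, 120876142 to 120887613, minus strand) had 10.8 and 10.7 CPM with Aβ40, against 14.9 and 18.1 CPM with DMSO. Here both Aβ40 libraries lay below both DMSO libraries, at a log2 fold change of -0.62 (SE 0.23). Oas1a thus stood 9.01 and 9.38 times above Oas1g per gene length in the Aβ40 libraries, and 5.97 and 6.53 times above it in the DMSO libraries.

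The pair is close enough for reads to be confused. The longest protein-coding transcripts of Oas1a and Oas1g in GENCODE M21, 1885 and 1977 bases long with 7 exons each, were 97.8% identical over 1857 aligned bases. Of all stretches of 100 bases in the Oas1a transcript, 40.9% also occurred in Oas1g, and 38.2% of those in Oas1g occurred in Oas1a. How the authors' counting treated such reads is not stated, so the split between these genes is uncertain. Summed, they gave 89.3 and 91.3 CPM with Aβ40, against 86.6 and 113 CPM with DMSO, and the groups overlapped. No stretch of 100 bases in the transcripts of Oas2, Oas3, Oasl1 or Oasl2 occurred in another gene.

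Oas3 (ENSMUSG00000032661, 120753098 to 120777661, minus strand), the longest of the family with several OAS units, had 186 and 210 CPM with Aβ40, against 325 and 366 CPM with DMSO. The groups were well apart, with the higher Aβ40 library below the lower DMSO library, and the mean was 198 ± 17.1 CPM with Aβ40 and 345 ± 29.2 CPM with DMSO (SD, n = 2 each). Its log2 fold change, -0.80 (SE 0.18), was the lowest of the 6 genes, and DMSO levels were 1.74 times those with Aβ40. It stayed between -0.72 and -0.91 when any 1 library was left out.

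Oas2 (ENSMUSG00000032690, 120730333 to 120749853, minus strand), which lies next to Oas3, had 69.7 and 74.7 CPM with Aβ40, against 98.7 and 140 CPM with DMSO. The groups did not overlap, but the DMSO libraries were further from each other than DMSO 1 was from Aβ40 2. The log2 fold change was -0.73 (SE 0.20). It was -0.46 without DMSO 2 and -0.96 without DMSO 1. Per gene length, Oas3 was 1.68 and 1.77 times Oas2 with Aβ40 and 2.07 and 1.64 times Oas2 with DMSO, so this ratio overlapped between the groups.

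The ubiquitin-like members parted from each other. Oasl2 (ENSMUSG00000029561, 114896936 to 114912234, plus strand) had 240 and 263 CPM with Aβ40, against 290 and 362 CPM with DMSO. Its groups did not overlap, at a log2 fold change of -0.37 (SE 0.19), which was -0.22 without DMSO 2. Oasl1 (ENSMUSG00000041827, 114923240 to 114937915, plus strand) had 224 and 196 CPM with Aβ40, against 162 and 241 CPM with DMSO. Both Aβ40 libraries lay between the DMSO libraries. The log2 fold change of Oasl1 was 0.06 (SE 0.22), and it was -0.20 without DMSO 1, -0.04 without Aβ40 1 and 0.36 without DMSO 2. An antisense transcript, Gm13822 (114917318 to 114923277), overlaps only the first bases of Oasl1. It had 319 and 557 counts with Aβ40 and 909 and 390 counts with DMSO. Without stated strandedness, reads in that short overlap may belong to either gene.

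**Figure D1:**
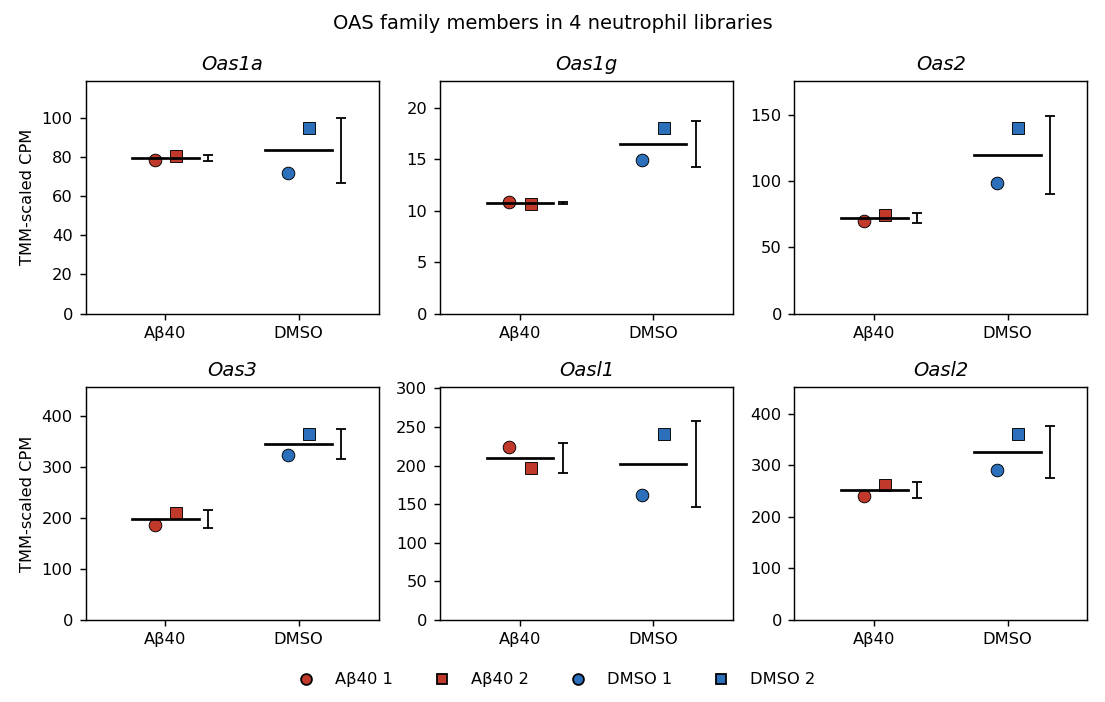
TMM-scaled CPM (vertical axis, from 0, own scale for each gene) of the 6 OAS genes in 2 Aβ40 and 2 DMSO libraries; points are libraries, horizontal lines group means and bars ±1 SD (n = 2 each). The groups stand apart for Oas1g, Oas2, Oas3 and Oasl2, while the Aβ40 points of Oas1a and Oasl1 lie between the DMSO points.

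Over the family, all 6 genes passed the filter on low counts, 5 had a negative log2 fold change (48.9% of all tested genes did), and the median was -0.50, against 0.01 over all tested genes. In 4 of 6 both Aβ40 libraries were below both DMSO libraries, which held for 21.9% of all tested genes (45.1% had groups apart in either direction). None of the 6 was called by the edgeR quasi-likelihood test (0 of 6, against 0.126% of all tested genes in either direction), 3 of 6 had an unadjusted p under 0.05 on the lower side (5.72% of all tested genes), and DESeq2 called 1, Oas3, lower (0.343% of the genes to which it gave an adjusted p, and 1.24% in either direction). These shares are read beside the family only as a description, since this comparison was known when the genes were chosen. The counts also take Oas1g as a separate gene, though its split from Oas1a is uncertain. The sum of Oas1a and Oas1g overlapped between the groups. Summed over the 6 genes, the family had 809 and 836 CPM with Aβ40, against 962 and 1222 CPM with DMSO, from 13830 and 15976 counts and 17954 and 22727 counts.

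Much of the variation lay between the DMSO libraries. In DMSO 2 all 6 genes were above their own mean over the 4 libraries, by 0.23 to 0.60 on the log2(CPM + 1) scale. In DMSO 1 they were spread from -0.33 for Oasl1 to 0.31 for Oas3. In the Aβ40 libraries Oas3, Oas2, Oas1g and Oasl2 were below their means, and Oas1a was within 0.05 of its mean in both. Profiles over the 4 libraries differed least between Oas1g and Oas2 (root mean square difference 0.12, the same to 2 decimals for Oas1g and Oasl2 and for Oas1a and Oasl1) and most between Oas3 and Oasl1 (0.48). DMSO 2 also had the lowest summed neutrophil markers, whereas the neutrophil markers Csf3r, Mmp9 and Cxcr2 were highest there, so that list went both ways. Its part in the OAS values was not tested.

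**Figure D2:**
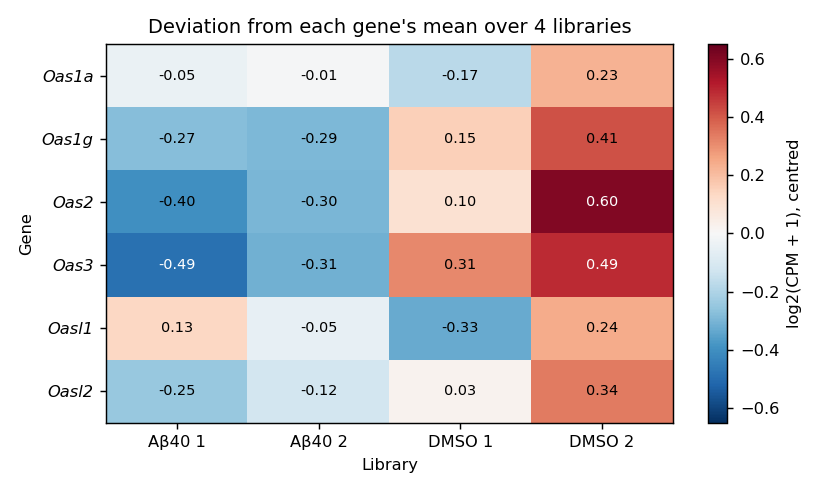
Deviation of each OAS gene (rows) from its own mean over 4 libraries (columns), as centred log2(CPM + 1), in colour and as printed values. DMSO 2 is positive for all 6 genes, from 0.23 to 0.60, whereas DMSO 1 runs from -0.33 in Oasl1 to 0.31 in Oas3.

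Levels per gene length were read from the deposited FPKM, which scales fragments by gene length and sequencing depth. With Aβ40 the order was Oasl1 (79.4 ± 6.93 FPKM), Oas1a (41.6 ± 0.947), Oasl2 (38.9 ± 2.62), Oas3 (27.6 ± 2.50), Oas2 (16.0 ± 0.860) and Oas1g (4.53 ± 0.0266; SD, n = 2 each, all in FPKM). The closest neighbours were Oas1a, with 40.9 and 42.3 FPKM, and Oasl2, with 37.1 and 40.8 FPKM, whose libraries came near each other without overlapping. With DMSO the order was Oasl1 (77.0 ± 21.3 FPKM), Oasl2 (50.9 ± 7.84), Oas3 (48.6 ± 4.10), Oas1a (44.0 ± 8.71), Oas2 (26.7 ± 6.57) and Oas1g (7.01 ± 0.950; SD, n = 2 each, all in FPKM). The libraries of Oasl2, Oas3 and Oas1a overlapped there. Oasl1 led and Oas1g came last in every library. Oas3 stood below Oas1a in both Aβ40 libraries and above it in both DMSO libraries. It had 0.632 and 0.696 times the FPKM of Oas1a with Aβ40, against 1.21 and 1.03 times with DMSO, and 0.307 and 0.395 times that of Oasl1 with Aβ40, against 0.739 and 0.560 times with DMSO.

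**Figure D3:**
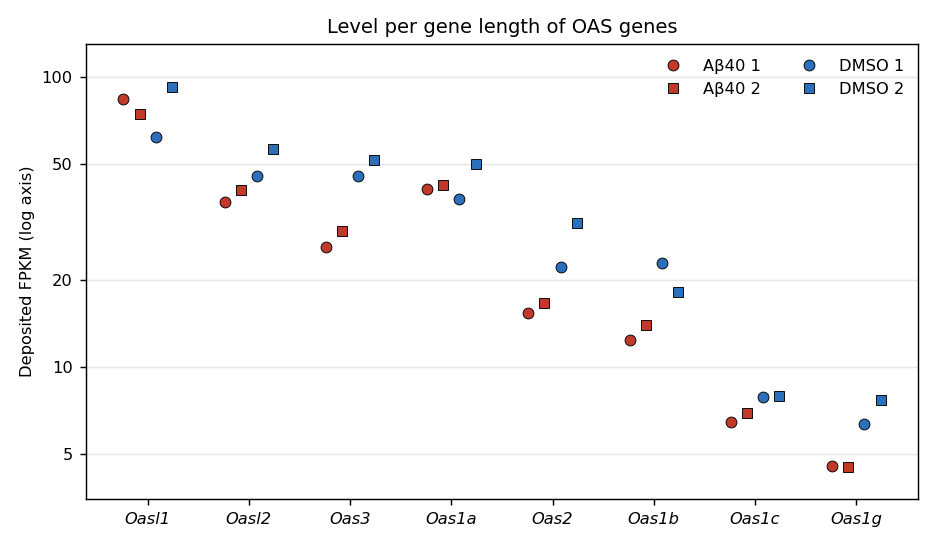
Deposited FPKM (log axis) of the 6 OAS genes and of Oas1b and Oas1c, in order of the DMSO mean; each point is a library, Aβ40 left of DMSO within a gene. Oasl1 is highest and Oas1g lowest among the 6 in every library, and the Aβ40 points of Oas3 (25.9 and 29.4 FPKM) lie below those of Oas1a (40.9 and 42.3 FPKM), with the DMSO points of both genes overlapping.

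All 6 genes lie on chromosome 5 in 2 clusters. Oasl2 and Oasl1 stand side by side within 41.0 kb, and Oas2, Oas3, Oas1g and Oas1a belong to a cluster of 10 genes that spans 191 kb. The remaining 6 genes of that cluster were listed for comparison, and 2 of them had enough counts to be tested. Oas1b, a flavivirus resistance gene that many laboratory strains carry in a truncated form and that the table lists as a polymorphic pseudogene, had 25.1 and 28.0 CPM with Aβ40, against 45.7 and 36.2 CPM with DMSO. Its groups did not overlap, and its log2 fold change of -0.62 (SE 0.20) did not pass the test (edgeR quasi-likelihood, Benjamini-Hochberg adjusted p = 0.331). Without DMSO 2 the log2 fold change was -0.79. Oas1c had 15.8 and 16.8 CPM with Aβ40, against 19.0 and 19.1 CPM with DMSO, at -0.22 (SE 0.21, adjusted p = 0.691 in the same test).

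The 4 others were at or near 0. Oas1f had 0 counts in every library, which allows up to 0.157 to 0.175 CPM if 3 counts are taken as the limit, for counting error only. Oas1d, known in mouse from its role in oocytes, had 0 and 0 counts with Aβ40 and 0 and 2 counts with DMSO. Oas1e had 2 and 4 counts with Aβ40 and 6 and 0 counts with DMSO, and Oas1h had 1 and 4 counts with Aβ40 and 5 and 5 counts with DMSO. Tested genes just outside the cluster, 2 on each side, were mixed in sign, at 0.69 for Rasal1, 0.98 for Dtx1, -0.40 for Ptpn11 and 0.59 for Rpl6 on the log2 fold change scale.

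Genes with a part in 2-5A turnover and its downstream control were listed too. Abce1, a ribosome-recycling factor, had 59.4 and 44.6 CPM with Aβ40, against 32.5 and 42.9 CPM with DMSO. Its log2 fold change was 0.46 (SE 0.22, adjusted p = 0.435 in the edgeR quasi-likelihood test), with the groups just apart. Without DMSO 2 the log2 fold change was 0.67. Pde12, a phosphodiesterase that degrades 2-5A, was at 0.02 (SE 0.25), and Akap7, a kinase anchor protein with an isoform of like activity, at 0.19 (SE 0.32). The groups overlapped for both.

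The pathway around the family was described by lists of 85 genes in all, some of which had too few counts to be tested. None of those tested was called in either direction by the edgeR quasi-likelihood test (the background of calls was 0.126%). DESeq2 called 1, Ifi27l2a, higher (its background of calls in either direction was 1.24%). Of 12 sensors and cofactors of double-stranded RNA, the log2 fold change was negative in 7 and positive in 5. Their median was -0.07, and 3 were at an unadjusted p under 0.05 in that test (12.2% of all tested genes were, in either direction). The most abundant were Ddx58, the gene of RIG-I, at 0.08 (SE 0.21), Trim25, its ubiquitin ligase, at -0.54 (SE 0.19), and Ifih1, the gene of MDA5, at -0.27 (SE 0.16). The highest was Zbp1, a sensor of Z-form nucleic acid that is itself interferon-induced, at 0.54 (SE 0.18), with 108 and 95.8 CPM with Aβ40, against 76.0 and 64.6 CPM with DMSO. Trim25 and Zbp1 both had groups that did not overlap, in opposite directions.

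Interferon ligands were scarce. Of 12 ligand genes 10 had 0 counts in all libraries. Ifnb1 had 24 and 6 counts with Aβ40 and 8 and 8 counts with DMSO, and Ifng, the single ligand gene tested, had 14 and 18 counts with Aβ40 and 9 and 1 counts with DMSO, which gave 1.69 ± 0.96 (log2 fold change and SE; adjusted p = 0.506 by the edgeR quasi-likelihood test). Of 16 receptor and signalling genes 12 were negative and 4 positive, with a median of -0.09. An unadjusted p under 0.05 was found for 1, against 12.2% of all tested genes. Among the most abundant were Usp18, a brake on the interferon receptor, at 0.06 (SE 0.17), and Jak1, a receptor kinase, at -0.06 (SE 0.23). Irf2, a repressor that competes for response elements, was lowest at -0.51 (SE 0.17), and Ifngr1, a chain of the interferon-gamma receptor, highest at 0.47 (SE 0.23).

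Of 43 tested interferon-stimulated genes 25 were negative and 18 positive, with a median log2 fold change of -0.04. By the edgeR test 2 were at an unadjusted p under 0.05 (12.2% of all tested genes). Groups did not overlap for 12 on the lower and 10 on the higher side (45.1% of all tested genes, either direction). Rsad2, the gene of viperin, was at -0.25 (SE 0.20), Ifit1, a binder of foreign RNA caps, at -0.04 (SE 0.21), and Ifitm3, a block to virus entry, at -0.08 (SE 0.19), these being the most abundant. The list ran from -0.39 for Stat2 to 1.01 for Ifi27l2a, which had 70.9 and 56.7 CPM with Aβ40, against 25.3 and 38.2 CPM with DMSO (edgeR quasi-likelihood, adjusted p = 0.220). Oas1g, Oas2 and Oas3 lay below that range and Oasl2, Oas1a and Oasl1 within it. Genes of the other pathway lists lay below it too, among them Oas1b (-0.62), Trim25 (-0.54) and Irf2 (-0.51), and Ifng (1.69) lay above it. These differences were not tested. Leaving out a DMSO library moved the log2 fold changes, and a single DMSO library gives no spread for that group. The genes given here were picked by their values in these fits. Without DMSO 1 Trim25 was at -0.71, Tyk2 at -0.77, Stat2 at -0.57 and Irf2 at -0.60. Zbp1 was then at 0.66 and Ifi27l2a at 0.74. Without DMSO 2 Oas1b was at -0.79, Abce1 at 0.67, Tlr7 at 0.72, Ifngr1 at 0.80 and Ifi27l2a at 1.32.

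**Figure D4:**
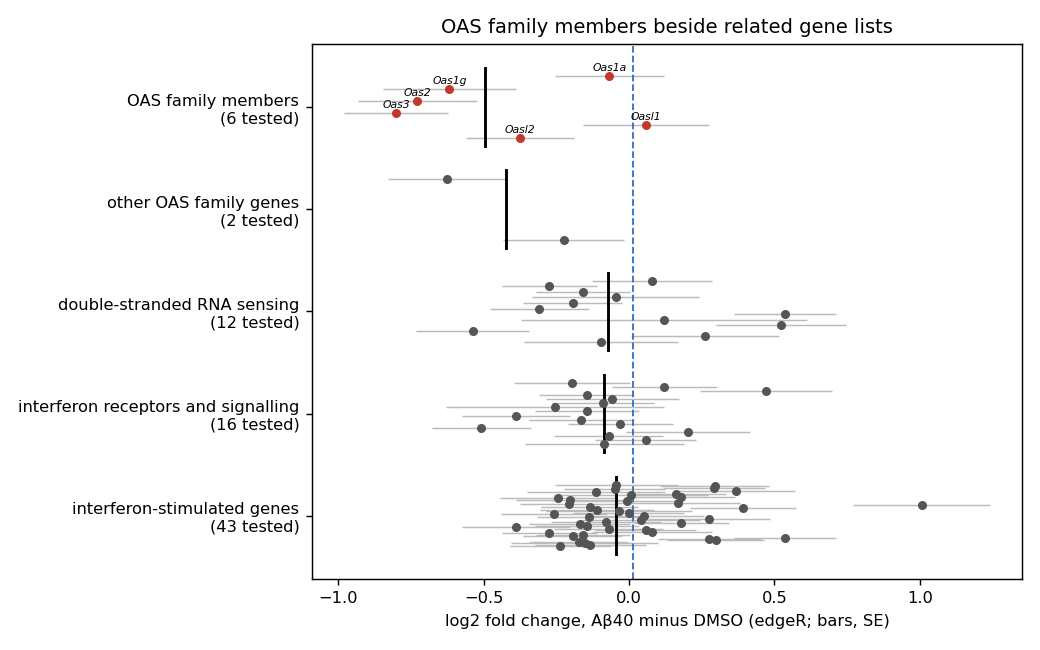
Log2 fold change of Aβ40 over DMSO (horizontal axis; points are genes, grey bars the SE of the edgeR fit) for the 6 OAS genes in red and for tested genes of 4 related lists; black lines are list medians and the dashed line the median of all tested genes, 0.01. The OAS median is -0.50, against -0.04 for the interferon-stimulated genes.

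The genes whose profiles over the 4 libraries were closest to the OAS genes were sought among 8874 tested protein-coding genes (mean over the libraries 5 CPM or more), by the root mean square difference of centred log2(CPM + 1), with no test. Among the 5 nearest to the mean profile of the 6 were Ankrd33b, Stat2, Cebpa and Phka2, at 0.01 to 0.02. Stat2 is part of the complex that drives OAS genes, Cebpa a transcription factor of granulocyte development and Phka2 a subunit of phosphorylase kinase. Stat2 had 93.2 and 94.5 CPM with Aβ40, against 107 and 139 CPM with DMSO. Irf9, of the same complex, was not among the 5 nearest. It had 216 and 216 CPM with Aβ40, against 217 and 266 CPM with DMSO. Its log2 fold change was -0.16 (SE 0.18), with the groups just apart. A part of either gene in the OAS levels was not tested. The nearest to Oas1a were Cyhr1 and Irf7, and Irf7 had 172 and 175 CPM with Aβ40, against 158 and 206 CPM with DMSO, so that its Aβ40 libraries also lay between the DMSO libraries.

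Nearest to Oas3 were Sema4f, a semaphorin, and Mapk7, the kinase ERK5. Mapk7 had 25.9 and 30.5 CPM with Aβ40, against 48.2 and 52.6 CPM with DMSO. Oas2 was closest to Myo1f, a myosin of immune cells, and to Gpr157, Oas1g to Cdc42ep4 and Abr, Oasl2 to Triobp and Clcn7, a chloride transporter of lysosomes, and Oasl1 to Itgb2, the beta-2 integrin chain, and Atf6, a sensor of unfolded proteins. With 4 libraries many genes share a profile, so closeness is a description of these libraries. The same genes were nearest with median-ratio scaling.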

How the data were processed

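Libraries were made from total RNA, per the labels' protocols. Tools named in the submitters' processing notes are the aligner HISAT2 (version 2.0.5) and the read counter featureCounts (version 1.5.0-p3), with mm10 as the build. Neither strandedness nor the annotation release is given in the sources used here. The authors deposited raw counts per gene, used as they are, and FPKM, used for levels per gene length. GENCODE M21 held 54409 of the 54532 identifiers, 53842 under the same symbol.

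The counts went into edgeR 4.0.16 (R 4.3.3): filterByExpr (13479 genes kept), TMM scaling, and the quasi-likelihood test of Aβ40 against DMSO, 2-sided, with Benjamini-Hochberg adjustment over all tested genes at 0.05. There were 2 residual and 6.88 prior degrees of freedom, with a common biological coefficient of variation of 0.210. SE values are from this fit. The chi-square per degree of freedom between libraries of a group was 12.4 for Aβ40 and 38.9 for DMSO, so libraries of a group differed by more than sampling noise. One count is worth 0.0523 to 0.0585 CPM.

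Promoters are from RefSeq and transcripts from GENCODE M21, aligned with Biopython 1.88. Of the symbols in the comparison and marker lists, 1 (Ahsp) had no match. Every gene of a list of up to 6 was named; for longer lists, called members or else the 3 most abundant and the lowest and highest by fold change, and for profiles the 5 nearest to the mean and 2 nearest to each gene. Genes listed by setting, Tlr7 and Tyk2 among them, the cluster's neighbours, and Csf3r, Mmp9, Cxcr2, S100a9 and Ngp were named after their values were seen. So were Irf9, Ly6c2, Cx3cr1, Ly6d and Runx2. The 6 genes and all lists were chosen with earlier results of these data known. Some genes that these rules name are not reported here. Protein sequences were not used here. Alternatives were 3 other scalings, DESeq2 1.42.0, limma-voom (limma 3.58.1), the likelihood ratio test, 2 other filters on counts, a test of protein-coding genes alone, a block for replicate number, each library left out, and limma on log2 FPKM with a pseudocount of 1 or 0.1.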

Additional observations from a re-analysis of the deposited data

How the results depend on the processing

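The median log2 fold change of the 6 OAS genes stayed negative under each alternative run, from -0.34 without DMSO 2 to -0.64 without DMSO 1 (leaving out an Aβ40 library gave -0.47 and -0.54). Oas1g, Oas2, Oas3 and Oasl2 were negative under all 16 alternatives, and also under the crossed one below, which is not among the 16. Signs turned for Oas1a, which ran from -0.26 to 0.14 when a library was left out (0.14 without DMSO 2), and for Oasl1, which was -0.011 with library-size scaling and ran from -0.20 to 0.36 when a library was left out (-0.037 without Aβ40 1, -0.20 without DMSO 1). OAS genes called lower numbered 0 in the quasi-likelihood test, beside 0 over all tested genes. They numbered 1 with DESeq2 (36 over all genes) and 1 with the likelihood ratio test (61 over all genes). With no filter on low counts they numbered 2 (70 over all genes). These counts are a description only, since this comparison was known when the genes were chosen. Of the listed pathway genes, 0 were called higher or lower; 1 was higher with DESeq2, 1 with the likelihood ratio test and 1 with no filter, each time Ifi27l2a, and leaving out a library gave 0 to 4 higher and 0 to 4 lower. Over all genes, 17 higher and 0 lower became 94 and 36 with DESeq2, 160 and 61 with the likelihood ratio test, 185 and 70 with no filter, 0 and 0 with limma on FPKM with either pseudocount, and 1 lower with library-size scaling. Leaving out a library gave 0 to 705 higher and 0 to 479 lower, the large counts without a DMSO library; the lone library is then assumed to vary like the others, and the cause was not tested. With the replicate number as a block 27 genes were higher and 0 lower, and no OAS or pathway gene was called. Same-numbered libraries deviated in opposite ways (r = -0.25 over 13479 genes), so the number is not taken as a pairing; with the numbers crossed, an alternative added after seeing the data, 445 genes were higher and 276 lower, with 2 OAS genes lower and 2 pathway genes higher and 1 lower. Depth does not limit the 6 genes, whose smallest count was 185; it limits the interferon ligands and Oas1d, Oas1e, Oas1f and Oas1h. The number of libraries, 2 per group, limits every comparison.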
